A study of Aedes albopictus with 4 samples.

Results

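The mitochondrial genome of Aedes albopictus, the Asian tiger mosquito, is represented in the data by 37 genes of 25320, taken as all genes whose identifier begins with KEG16_. They comprise 13 protein genes, 2 rRNA genes and 22 tRNA genes. RNA was sequenced from whole larvae of the fourth instar at 72 h, in 2 libraries from larvae exposed to the herbicide diquat at 1/5 of the LC50 (the concentration lethal to the median larva) and in 2 libraries from untreated control larvae. The sources used here do not name the strain, the number of larvae in a library or the vehicle. The design describes 1 control and 1 treated sample with their duplicates, so the spread between libraries may be technical. The p-values measure only that spread, as pooled over many genes by the variance model of the test.

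Mitochondria keep a small circular genome of their own. It encodes core subunits of the respiratory complexes I, III and IV and of the ATP synthase (complex V), together with the rRNAs and tRNAs that translate them. The other subunits, and the enzymes that copy, transcribe and process this genome, are encoded in the nucleus and imported. In insects both strands are transcribed by the mitochondrial RNA polymerase into long precursors, most of the mRNAs are freed by cutting out the tRNAs that lie between them, and their levels then depend on cleavage, polyadenylation, stabilising proteins and decay. Diquat is a bipyridyl compound that accepts electrons and passes them to oxygen in a cycle, and flavoenzymes are among the sources of those electrons.

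The authors deposited normalized counts, which were read counts divided by 1 factor per library. Whole reads could be recovered for every value, 45243090 and 48383964 in the diquat libraries and 34502559 and 39242657 in the controls. RNA of the mitochondrial genome took a smaller share of that pool in diquat larvae. The 37 genes took 2.49% and 2.45% of counted reads in the diquat libraries, against 4.88% and 4.87% in the controls. Their summed normalized counts were 1021426 ± 12925 in diquat and 2005176 ± 14696 in control larvae (SD, n = 2 each), so that the diquat sum was 50.9% of the control sum. The difference was uneven over the RNA classes. The diquat sum was 74.6% of the control sum for the protein genes, 44.3% for the rRNA genes and 43.1% for the tRNA genes. In whole larvae, fewer mitochondria or fewer cells rich in them cannot be told apart from less RNA per mitochondrion.

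Differences were tested with limma on log2(normalized count + 1), and p-values were adjusted by Benjamini-Hochberg over all 17992 genes whose mean reached 10 normalized counts. All 13 protein genes, both rRNA genes and 9 of the 22 tRNA genes were tested. At an adjusted p under 0.05, 23 of these 24 genes fell and 0 rose, where 22% of all tested genes fell and 26.7% rose. At an unadjusted p under 0.05 all 24 were lower by limma and 0 higher, and edgeR and DESeq2 also called 0 higher. At least 2-fold falls were made by 13 of the 24, against 2.82% of all tested genes. Both diquat libraries lay below both controls in 33 of the 37 genes, untested ones included, where 35.5% of all tested genes did so. The median log2 fold change was -0.91 over the 13 protein genes and -0.0028 over all tested genes. How small the p-values are depends on the variance trend that limma shared over genes. With a constant variance prior 21 of the 24 fell, and the limma adjusted p was 0.0140 for ND2 and 0.0448 for CYTB.

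**Figure D1:**
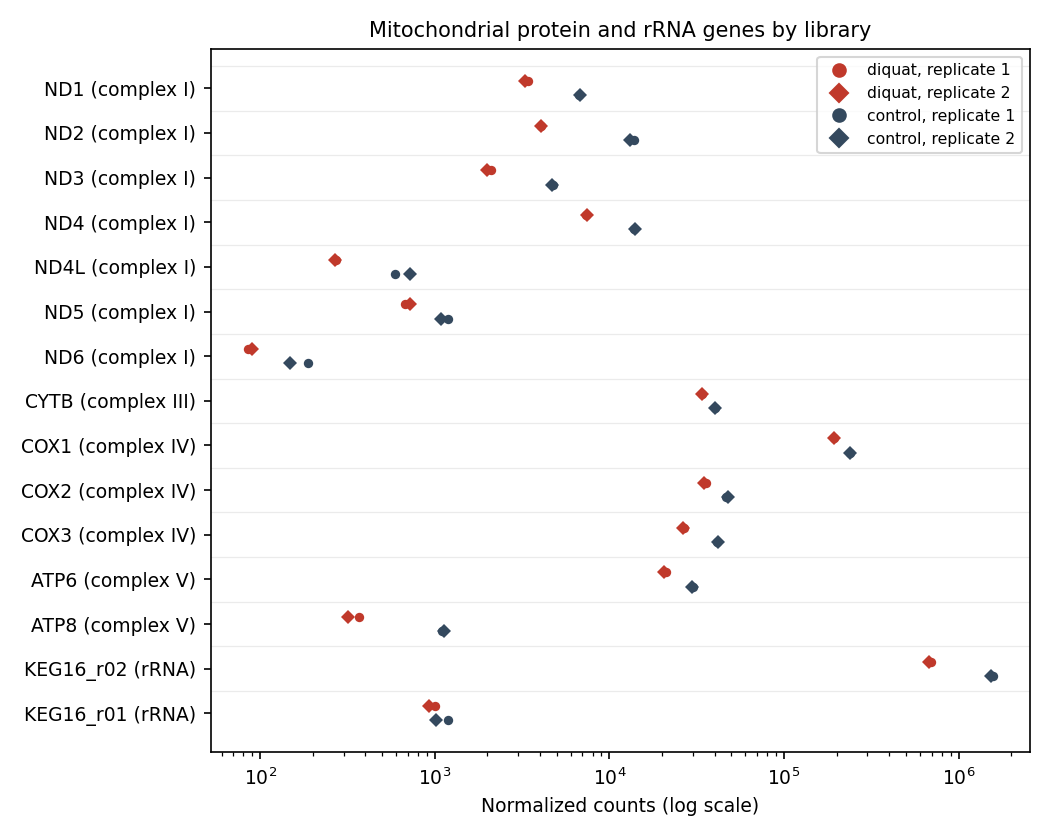
Normalized counts (log scale) of the 13 protein and 2 rRNA genes of the mitochondrial genome in each library, with diquat libraries in red above control libraries in dark blue. In each of the 15 genes both red points lie left of both blue points, closest together in KEG16_r01, and ND2 and ATP8 show the widest gaps among the protein genes.

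The genes of complex I, the NADH dehydrogenase through which electrons enter the chain, had the largest fall of the complexes in their sum. All 7 fell, 4 of them at least 2-fold, and their sum in diquat larvae was 43.8% of the control sum. The mitochondrially encoded ND subunits form the membrane arm of the complex, which pumps protons. ND2, one of the antiporter-like subunits of that arm, had 4050.0 and 4066 normalized counts in the diquat libraries and 13789 and 13178 in the controls. Both diquat libraries were far below both controls, and ND2 fell by 1.73 ± 0.03 on the log2 scale (SE, n = 2 in each group; limma adjusted p = 3.07e-25), the largest fall among the protein genes. ND4, another antiporter-like subunit, had 7367 and 7418 normalized counts in diquat and 13786 and 14066 in control libraries, and ND5, the antiporter-like subunit at the far end of the arm, had 672.6 and 718.6 in diquat and 1195 and 1082 in control libraries. Neither gene's groups overlapped, and the log2 fold changes of -0.91 ± 0.03 (ND4) and -0.71 ± 0.08 (ND5) were nearer to 0 than that of ND2.

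The smaller ND genes moved in the same range. ND3, which carries a loop near the quinone site, had 2105 and 1978 normalized counts in diquat libraries and 4782 and 4693 in controls, and fell by 1.21 ± 0.04 on the log2 scale. ND1, which helps to form the quinone-binding channel, had 3412 and 3302 in diquat and 6688 and 6771 in control libraries, and fell by 1.00 ± 0.03. The diquat mean was 43.1% of the control mean for ND3 and 49.9% for ND1, with no overlap between groups. ND4L had 272.1 and 269.7 normalized counts in diquat and 592.1 and 722.0 in control libraries, and fell by 1.27 ± 0.11. ND6 had the lowest counts of the mitochondrial protein genes, with 85.2 and 89.6 in diquat and 186.6 and 148.2 in control libraries. It rested on 93 and 105 reads in diquat and 156 and 142 reads in control libraries, and its log2 fold change of -0.92 ± 0.20 had the widest error of the 13 (limma adjusted p = 0.000403). The groups did not overlap in either gene, although the controls of ND4L and ND6 differed more from each other than the diquat libraries did.

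CYTB, the only subunit of complex III that the mitochondrial genome encodes, holds the haems that carry electrons from quinol. It changed least among the protein genes. It had 33844 and 33718 normalized counts in diquat and 40001 and 40298 in control libraries. The groups stood apart by more than the differences within them, and the log2 fold change was -0.25 ± 0.02 (limma adjusted p = 2.91e-13).

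Complex IV, the cytochrome c oxidase that reduces oxygen to water, had the largest sum of the complexes, as counted on the mitochondrial genes. COX1, its catalytic core with the haem and copper centre, had 193592 and 192284 normalized counts in diquat and 238344 and 239880.0 in control libraries, and fell by 0.31 ± 0.01 on the log2 scale. COX2, which takes electrons from cytochrome c, had 35663 and 35023 in diquat and 46531 and 47517 in control libraries, and fell by 0.41 ± 0.02. COX3, a core subunit without redox centres, had 26911 and 26361 in diquat and 41355 and 41814 in control libraries, and fell by 0.64 ± 0.02. The groups were apart in all 3 genes, and none of them fell 2-fold. The sum of the complex in diquat larvae was 77.8% of the control sum, and without COX1 it was 69.9%.

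The complex V genes, which encode parts of the membrane sector of ATP synthase, differed most within a complex. ATP6, the subunit that lines the proton path, had 21055 and 20617 normalized counts in diquat and 30018 and 29548 in control libraries, and fell by 0.52 ± 0.02 on the log2 scale. ATP8, a short membrane subunit, had 370.2 and 316.6 in diquat and 1093 and 1130.0 in control libraries, and fell by 1.70 ± 0.09 (limma adjusted p = 1.76e-14). Both genes lay wholly below their controls. They overlap on the genome, and in insects they are carried on 1 shared mRNA, yet the ratio of ATP6 to ATP8 normalized counts was 56.9 and 65.1 in diquat and 27.5 and 26.1 in control libraries. ND4 and ND4L, which also overlap and share an mRNA in insects, had ratios of 27.1 and 27.5 in diquat and 23.3 and 19.5 in control libraries. CYTB and ND6 overlap as well, and their ratio was 397 and 376 in diquat and 214 and 272 in control libraries. The sources used here do not say how reads lying on both genes of a pair were counted.

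**Figure D2:**
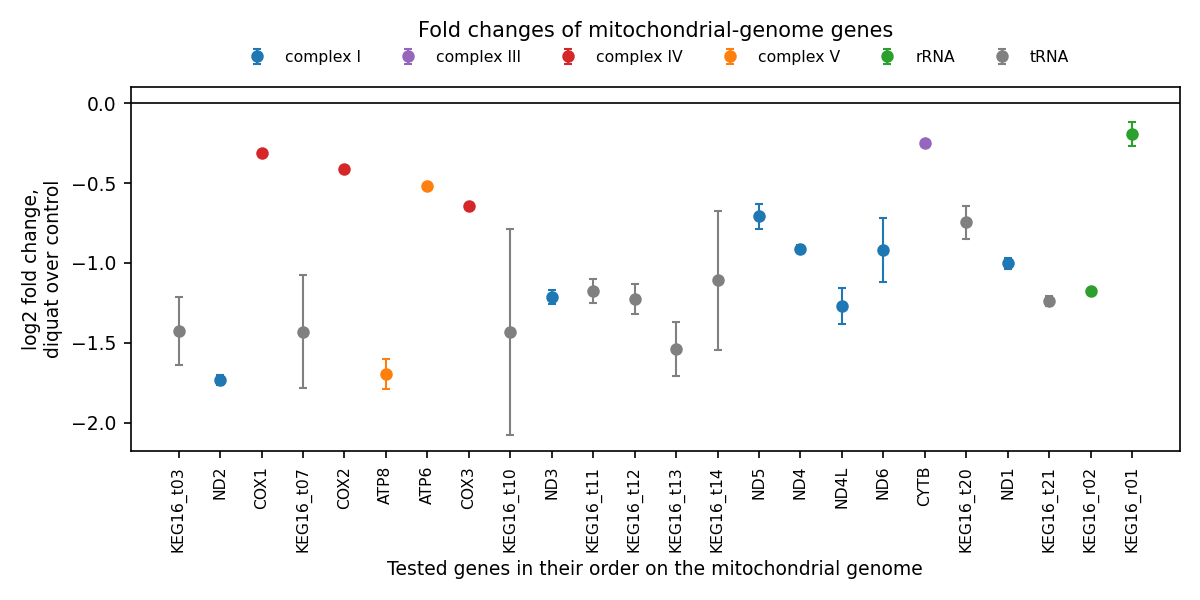
Log2 fold change of diquat over control (error bars, SE from limma) for the 24 tested genes in their order along the mitochondrial genome, coloured by complex or RNA class. All points lie below 0. COX1, COX2, ATP6, COX3, CYTB and KEG16_r01 lie nearest to it, and ND2, ATP8 and KEG16_t13 lie furthest below.

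To ask whether the members moved unequally, every library was divided by its own sum over the 13 protein genes and the fit was repeated. Relative to that sum 18 of the 24 tested members were lower in diquat larvae, 3 were higher and 3 did not pass. On this scale 4.44% of all tested genes were lower and 53.2% were higher. The protein-gene sum was itself lower in diquat larvae (log2 ratio of the means -0.42), so the scaling shifted every gene upward. These shares over all genes follow from that shift and do not measure whether members moved unequally. All 7 complex I genes were lower on this scale, from -0.29 (ND5) to -1.31 (ND2). CYTB (0.17), COX1 (0.11) and the shorter rRNA gene (0.23) were higher in diquat larvae relative to the protein-gene sum. With a constant variance prior none of these 3 passed (limma adjusted p = 0.0745 to 0.177). The shorter rRNA gene also did not pass without diquat replicate 1 (0.19) or without control replicate 2 (0.12). COX2 did not pass (0.01, limma adjusted p = 0.612), and COX3 (-0.22), ATP6 (-0.09) and ATP8 (-1.27) were lower. COX1 made up 58.8% and 59.0% of the protein-gene sum in diquat libraries, against 54.4% in both controls, so this scale leans on COX1. Complex I genes gave 5.45% and 5.47% of the protein-gene sum in diquat libraries and 9.36% and 9.22% in controls. As counted on the mitochondrial genes, the balance of the complexes therefore differed between the groups by far more than between duplicates. Nuclear genes named for the same subunits, described below, are left out of these sums, shares and relative fold changes. The ND1-like gene LOC134284466 alone averaged 134054 normalized counts in diquat and 261902 in control larvae, against 17903 and 40840 for the complex I sum. The sum over complex I genes divided by that over complex IV genes was 0.0701 and 0.0703 in diquat libraries, against 0.126 and 0.124 in controls.

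Levels per kilobase of annotated gene, which adjust for gene length, covered almost 3 orders of magnitude. They leave out nuclear genes of the same name, described below, and the order may depend on how shared reads were counted. ND1 and its nuclear namesake together averaged 268632 normalized counts in control larvae, against 239112 for COX1. In diquat larvae they averaged 137411, against 192938 for COX1. COX1 led with 125955 and 125103 normalized counts per kilobase in diquat and 155071 and 156070.3 in control libraries. ND6 was last, with 162.3 and 170.7 in diquat and 355.4 and 282.2 in control libraries. From high to low the order was COX1, COX2, COX3, ATP6, CYTB and ND3, then ND2 and ND4, then ND1, ATP8, ND4L, ND5 and ND6, and it was the same in all 4 libraries except for ND2 and ND4. ND2 had 3947 and 3963 normalized counts per kilobase in diquat and 13440.0 and 12844 in control libraries, and ND4 had 5481 and 5519 in diquat and 10257 and 10466 in control libraries. ND4 thus stood above ND2 in both diquat libraries and below it in both controls, and ND2 overlapped its upper neighbour ND3 only in the controls. Over the 13 genes, the log2 fold change went with the log2 control level per kilobase (Pearson r = 0.42, Spearman rho = 0.62) and with log2 gene length (r = 0.57, rho = 0.49). These are descriptions over genes that share precursors and libraries, and they rest on the same counted levels. The 4 genes on the strand that carries fewer genes in insects (ND1, ND4, ND4L and ND5) summed to 52.2% of control in diquat larvae, and the 9 genes on the other strand to 75.8%. COX1 made up most of the latter sum, which averaged 417153 normalized counts in control larvae. Log2 fold changes of those 9 genes ran from -1.73 to -0.25, and those of the 4 from -1.27 to -0.71. All 4 are complex I genes, so in them strand cannot be told apart from complex.

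The rRNA genes parted from each other. KEG16_r02, the longer of them, was the most abundant gene of the mitochondrial genome and gave most of its reads. It had 695045 and 680263 normalized counts in the diquat libraries and 1564318 and 1541291 in the controls. Both diquat libraries were far below either control, and it fell by 1.18 ± 0.01 on the log2 scale (SE, n = 2 in each group; limma adjusted p = 5.53e-35). KEG16_r01, the shorter rRNA gene, had 996.9 and 925.2 normalized counts in diquat and 1184 and 1015 in control libraries. The second control lay close to the first diquat library, and the log2 fold change of -0.19 ± 0.08 passed narrowly (limma adjusted p = 0.0399). It did not pass under 7 of the 17 other settings, and without control replicate 1 the log2 fold change was -0.08 (limma adjusted p = 0.463). The ratio of the longer to the shorter rRNA gene was 697 and 735 in diquat and 1321 and 1518 in control libraries. Nuclear copies of the rRNA genes were not searched for by name, and whether reads of either gene were counted elsewhere was not tested. The rRNA sum was 2.11 and 2.09 times the protein-gene sum in diquat libraries, against 3.57 and 3.50 times in controls. Without KEG16_r02, the other 36 genes summed to 73.8% of control in diquat larvae.

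One nuclear gene followed KEG16_r02 closely in level. LOC109428417, named integrin alpha-PS2 and picked after its values were seen, was the only gene outside the mitochondrial genome within 1.5-fold of KEG16_r02 in every library. It had 1.08 times the KEG16_r02 value in both diquat libraries and 1.10 times in both controls, and its log2 fold change was -1.20 ± 0.01. Whether the 2 genes share reads was not tested, since no sequence was available.

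The tRNA genes were unequal in depth. KEG16_t21, which lies between ND1 and KEG16_r02, gave 70.8% of the control tRNA sum. It had 3579 and 3428 normalized counts in diquat and 8325 and 8203 in control libraries, and fell by 1.24 ± 0.03 on the log2 scale. On the log2 scale KEG16_r02 beside it was at -1.18 and ND1 on its other side fell by 1.00. The run of tRNA genes after ND3 fell alongside it: KEG16_t11, which overlaps ND3, by 1.18 ± 0.07, KEG16_t12 by 1.23 ± 0.09 and KEG16_t13 by 1.54 ± 0.17. KEG16_t11 had 586.4 and 552.2 normalized counts in diquat and 1308 and 1269 in control libraries, and the 3 genes showed no overlap between groups.

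Differences between the remaining tRNA genes and the genes beside them were not tested. KEG16_t07, between COX1 and COX2, had 23.8 and 18.8 normalized counts in diquat and 55.0 and 62.6 in control libraries, and fell by 1.43 ± 0.35 on 22 to 60 reads a library. KEG16_t20, between CYTB and ND1, had 356.4 and 396.9 in diquat and 669.8 and 594.7 in control libraries, and its log2 fold change of -0.75 ± 0.10 lay between those of its neighbours. Neither showed overlap between the groups. KEG16_t03, beside ND2, fell by 1.43 ± 0.21. KEG16_t14 fell by 1.11 ± 0.44 (limma adjusted p = 0.0375) on 15 to 41 reads a library, a call lost under 7 of the 16 other settings in which it was tested, among them each of the 2 diquat libraries left out and control replicate 2 left out (log2 fold changes of -1.39, -0.83 and -0.83). KEG16_t10, at -1.43 ± 0.64, did not pass (limma adjusted p = 0.0687). The other 13 tRNA genes had at most 17 reads in any library and were not tested. Together they had 32 and 27 reads in the diquat libraries and 69 and 88 in the controls, and the mean was lower in diquat larvae in 12 of them and higher in 1, KEG16_t19, which had 1 read in all. With the filter on low values removed, limma called 4 of the 13 lower in diquat larvae (KEG16_t04, KEG16_t09, KEG16_t16 and KEG16_t17, adjusted p = 0.0297 to 0.0433) and did not call the other 9. The labels do not say how mRNA was selected, and whether the reads on tRNA genes come from mature tRNAs or from precursors was not tested.

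Nuclear copies of mitochondrial DNA occur in some mosquito genomes. In these data 8 nuclear genes were named for subunits of the mitochondrial genome (a list drawn up after their values were seen). Whether they are such copies was not tested. Of these 8 genes 6 fell, 0 rose and 2 did not pass, with the same counts by edgeR and DESeq2 and at an unadjusted p under 0.05 in limma. For several ND genes the nuclear namesake held most of the reads. LOC134284466, named ND1-like, had 135897 and 132210.3 normalized counts in diquat and 264231 and 259573 in control libraries. That was 39.8 and 40.0 times the value of the mitochondrial ND1 gene in diquat and 39.5 and 38.3 times in control libraries, and it fell by 0.97 ± 0.01 on the log2 scale, close to the fall of the mitochondrial ND1 gene. LOC134284470, named ND6-like, had 23631 and 23485 in diquat and 33637 and 34233 in control libraries, and fell by 0.53 ± 0.02. LOC134284215, named ND5-like, had 9387 and 9525 in diquat and 16618 and 16419.5 in control libraries, and fell by 0.80 ± 0.02. These 3 genes fell and stood far above the mitochondrial gene of the same name in every library.

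LOC134285711 (ND4L-like) and LOC134291969 (ND5-like), which overlap each other, fell by 1.13 ± 0.05 and 1.10 ± 0.05, and LOC134291091 (COX2-like) by 1.23 ± 0.04. The namesakes of lowest level, LOC134290911 (ND3-like, 0.17 ± 0.48) and LOC134291038 (ND5-like, -0.74 ± 0.51), did not pass. Summed with its namesakes, each of the 6 subunits was lower in diquat larvae, with log2 ratios of the group means of -0.97 for ND1, -1.21 for ND3, -1.15 for ND4L, -0.84 for ND5, -0.53 for ND6 and -0.48 for COX2. The mitochondrial gene gave 2.45% and 2.44% of the ND1 sum in diquat and 2.47% and 2.54% in control libraries, whereas for COX2 it gave 93.8% and 94.2% in diquat and 89.7% and 90.1% in control libraries. All 13 protein genes with these 8 nuclear genes summed to 65.5% of control in diquat larvae, a log2 ratio of -0.61. ND6 fell by 0.92 as the mitochondrial gene alone, and with its namesake it fell less than that total. The levels and fold changes of ND1, ND4L, ND5 and ND6 are therefore uncertain, as reads of near-identical copies may have been split between the 2 genomes. Whether the reads were split was not tested. The complex I sum and share, its ratio to complex IV, the order of genes by level and the calls relative to the protein-gene sum carry the same uncertainty.

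**Figure D3:**
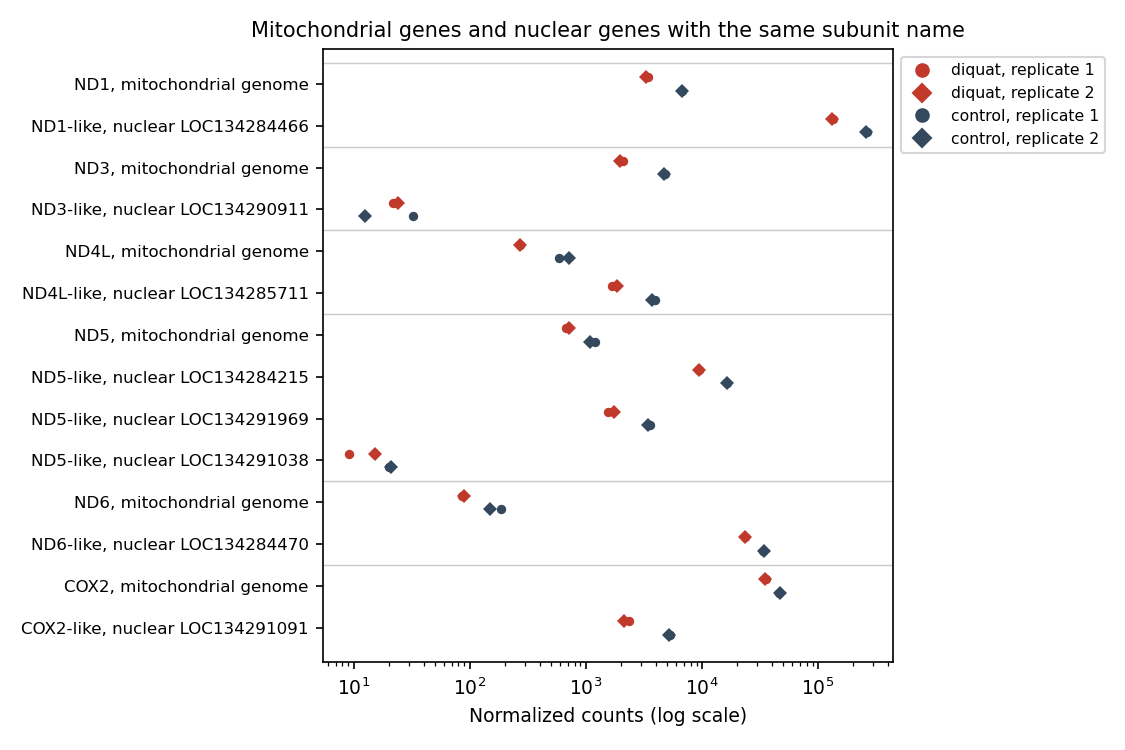
Normalized counts (log scale) in each library of the 6 mitochondrial genes with nuclear namesakes and of the 8 nuclear genes, with diquat libraries in red above control libraries in dark blue. The nuclear ND1-like, ND5-like (LOC134284215) and ND6-like genes lie to the right of the mitochondrial gene of the same name, with their red points left of the blue ones.

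Of 81 nuclear genes for subunits of complexes I to V found by product name, 77 were tested. Of these 33 rose, 16 fell and 28 did not pass, where 26.7% of all tested genes rose and 22% fell, with a median log2 fold change of 0.08 against -0.91 for the 13 mitochondrial protein genes. For complex I the nuclear list had 11 genes that rose and 5 that fell of 30, including the 75 kDa subunit of its electron-carrying arm (LOC109428450), which rose by 0.28 ± 0.04 on the log2 scale. For complex III 4 rose and 3 fell of 9, the Rieske iron-sulfur protein (LOC109404395) rising by 0.20 ± 0.02 while CYTB fell. For complex IV 5 rose and 5 fell of 15: subunit 4 (LOC109406928) had 14871 and 14766 normalized counts in diquat and 12075 and 11839 in control libraries, and subunit 6C (LOC115261809) fell by 0.30 ± 0.02. Subunit 7A1 (LOC109420849) had 76.1 and 100.7 in diquat and 238.0 and 180.5 in control libraries, and fell by 1.23 ± 0.20. It overlaps a more abundant gene and was the only 1 of the 77 that fell at least 2-fold. For complex V 11 rose and 3 fell of 19, with the catalytic beta subunit (LOC134291854) at 0.31 ± 0.01 and subunit K (LOC109424729) at -0.65 ± 0.04. Complex II, which has no subunit in the mitochondrial genome, had 2 that rose and 0 that fell of 4, among them its flavoprotein (LOC115253577, 0.32 ± 0.03). Assembly factors of these complexes had 16 that rose and 2 that fell of 33 (median 0.27).

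Of 12 tested nuclear genes of mitochondrial DNA maintenance and transcription, 6 rose, 0 fell and 6 did not pass (median 0.40). Of all tested genes 26.7% rose and 22% fell. The mitochondrial RNA polymerase gene LOC109420179 had 3377 and 3217 normalized counts in diquat and 1988 and 1929 in control libraries, and its second gene, LOC134286353, had 2605 and 2722 in diquat and 1435 and 1580 in control libraries. Both genes lay above the controls in both diquat libraries and rose by 0.75 ± 0.05 and 0.82 ± 0.05 on the log2 scale. Dimethyladenosine transferase 1 (LOC109407702), of a family that in animals methylates the small rRNA or helps to start transcription, rose by 0.52 ± 0.08. The nuclease MGME1 (LOC115267720), which trims mitochondrial DNA ends in mammals, rose by 0.56 ± 0.21. The genes for TFAM, the DNA-packaging transcription factor, did not pass, at 0.25 ± 0.16 (LOC109405873) and 0.07 ± 0.14 (LOC109407201).

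Genes that cut, stabilise and degrade mitochondrial RNA had the highest median of the lists of mitochondrial machinery (0.57). In this list 17 rose, 0 fell and 6 did not pass. For it and the translation lists below, the shares over all tested genes were 26.7% that rose and 22% that fell. The LRPPRC genes LOC134283945 and LOC115258536, whose mammalian product holds mitochondrial mRNAs stable, rose by 0.83 ± 0.04 and 0.75 ± 0.04. LOC134283945 had 3611 and 3691 normalized counts in diquat and 1997 and 2113 in control libraries, well apart. Its partner SLIRP (LOC115269546) rose by 0.69 ± 0.05, the mitochondrial poly(A) polymerase (LOC109426153) by 0.68 ± 0.06 and ribonuclease Z (LOC115265623), which cuts the 3′ ends of tRNAs, by 0.82 ± 0.14. The degrading enzymes PNPT1 (LOC109432312) and SUV3 (LOC109430374) rose by 0.57 ± 0.17 and 0.44 ± 0.14. On the translation side, mitochondrial ribosomal proteins had 20 that rose and 2 that fell of 44 (median 0.17), translation factors 6 and 0 of 7 (median 0.54) and mitochondrial tRNA ligases 8 and 0 of 16 (median 0.33). In these lists with 0 that fell, edgeR and DESeq2 also called 0 lower. At an unadjusted p under 0.05, limma had 1 lower gene among the translation factors and 0 in the maintenance, RNA processing, tRNA ligase and complex II lists. The elongation factor G genes LOC109404794 and LOC109423879 rose by 0.60 ± 0.04 and 0.62 ± 0.05.

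**Figure D4:**
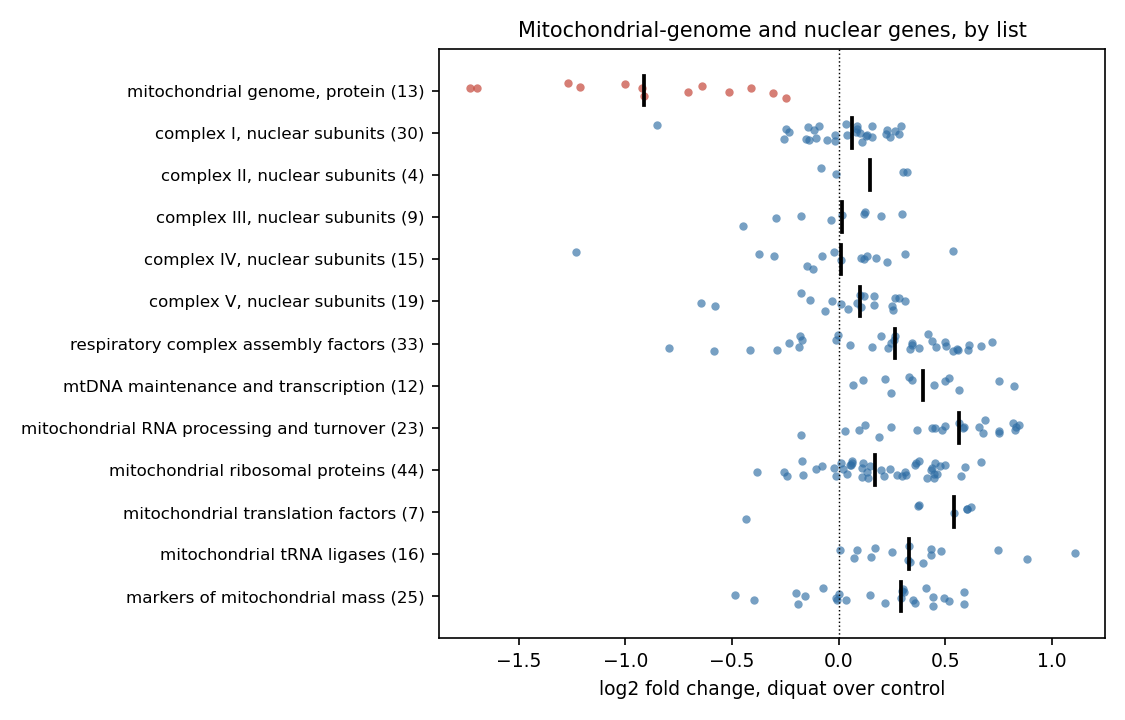
Log2 fold change of diquat over control for each tested gene (points, with the number of genes in brackets) and the median of each list (vertical bars), for the 13 protein genes of the mitochondrial genome in red and 12 lists of nuclear genes in blue. The red points all lie below 0 with a median of -0.91, and the medians of the blue lists lie between 0.01 (complex IV) and 0.57 (RNA processing and turnover).

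Nuclear genes that mark mitochondrial mass (carriers, import receptors, prohibitins and the like) had 13 that rose and 3 that fell of 25. Their sum was 119% of control in diquat larvae. For this list and the tissue markers below, the shares over all tested genes were 26.7% that rose and 22% that fell. The ADP,ATP carrier gene LOC134288418 had 91459 and 91130.5 normalized counts in diquat and 74695 and 73520.0 in control libraries, a rise of 0.30 ± 0.01. Markers of muscle, fat body, gut, epidermis and nervous system were all found in these whole larvae, and 5 of the 104 gut genes, but no gene of the other lists, had no reads in any library. Muscle markers, a tissue rich in mitochondria, summed to 1144756 to 1147077 normalized counts in diquat and 908538 to 915916 in control libraries, with 17 that rose and 17 that fell of 52. Fat body markers summed to 982538 to 986340.0 in diquat and 1105290.0 to 1110223 in control libraries (4 rose and 4 fell of 15), and gut markers to 331887 to 335136 in diquat and 385731 to 390209 in control libraries (28 rose and 18 fell of 72). Larval cuticle proteins, which mark the epidermis, fell in 23 and rose in 1 of 31, with sums of 41599 to 42183 in diquat and 78106 to 78553 in control libraries. Nervous system markers fell in 20 and rose in 0 of 21 (0 also by edgeR and DESeq2, and in limma at an unadjusted p under 0.05), with sums of 29617 to 29870.2 in diquat and 41749 to 42643 in control libraries. The part that tissue make-up has in the fall of the mitochondrial genes was not tested.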

How the data were processed

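RNA of 4 libraries was sequenced after Zymo Direct-zol extraction and NEBNext Ultra II RNA library preparation, per the labels' protocols. Per the submitters' processing notes, the tools included STAR 2.7.10a, fastp 0.12.4, bcl2fastq and DRAGEN. The sources used here do not name the counter, strand setting, genome build or normalizing tool. The authors deposited a normalized signal per gene, and all values (100%, tolerance 1e-06) were whole multiples of 1 step per library (0.853 to 1.20), which gave back reads. Scaling these reads by median-ratio factors gave the same fold changes of the members and the same number of called genes, 8772.

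Genes with a mean of at least 10 were compared by limma 3.58.1 (R 4.3.3) on log2(value + 1), which understates changes of low genes, with a variance trend and a two-sided Benjamini-Hochberg threshold of 0.05. On the recovered reads, edgeR 4.0.16 called 8829 genes and DESeq2 1.42.0 called 7243, against 8772 by limma. The fit was tested on simulated data. The members and gene lists were chosen with earlier results of these data known. All members were accounted for, and from each nuclear list up to 4 genes could be named (smallest p, mean of 50 or more), and any tested gene of the maintenance and RNA processing lists. Lists were built from product names. All 37 identifiers matched a RefSeq table of the AalbF5 assembly, used for names, neighbours and lengths. Strands of members follow the usual insect arrangement. Fits were repeated with other pseudocounts (0.5 and 5), filters (a mean of 50, or none), scalings, priors and tools, with a replicate block, and without each library.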

Additional observations from a re-analysis of the deposited data

How the results depend on the processing

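Members that fell numbered 21 to 25 under the 17 other settings (23 as reported) and 0 rose in any of them. The 25 came with no filter, where 4 tRNA genes not tested otherwise passed. Over all genes, falls ranged from 2739 to 4541 and rises from 3260 to 4961. Leaving out each library gave 21 to 22 members that fell, 3085 to 3678 genes that fell and 3748 to 4661 that rose, with the lone library assumed to vary like the others. Relative to the protein-gene sum, these omissions gave 16 to 17 lower members and 2 to 3 higher ones. A constant variance prior gave 0 higher members on that scale, against 3 as reported, and 14 lower ones. The cause was not tested. Of 404 values of single tested members under other settings, 388 kept direction and call and none changed sign. Median-ratio scaling returned the reported fit unchanged, so its values were bound to agree and add no check. The calls lost were those of KEG16_r01 and KEG16_t14, and that of KEG16_r02 under quantile normalization, where a log2 fold change of 0 follows from the construction, since the most abundant genes hold the same ranks in every library. KEG16_t10 passed only with edgeR (-1.63, adjusted p = 0.0387).

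Libraries that share a replicate number showed no common deviation (correlation 0.0118), so no pairing by number was seen. With 2 libraries a group, this value cannot show that there was none. With the number as a replicate block, 23 members fell, 4121 genes fell and 4935 rose, and relative to the protein-gene sum 18 members were lower and 3 higher.

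The widest errors were those of ND6, ND4L and the tested tRNA genes other than KEG16_t21, KEG16_t11, KEG16_t12 and KEG16_t20. Their SE ran from 0.11 (ND4L) to 0.64 (KEG16_t10), and KEG16_t20 lay just below, at 0.10. The share of counting error in them was not tested. Low counts limit the 13 untested tRNA genes, with at most 17 reads in any library. Variation between batches of larvae is not measured by 2 libraries a group. The other scalings shifted the median of all genes by at most 0.05 on the log2 scale.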

Other observations

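Pseudogenes beside the nuclear namesakes were also lower in diquat larvae (picked after their neighbours' values were seen). LOC134285710 had 118214 and 115012 normalized counts in diquat and 209982 and 201399.5 in control libraries, with a log2 fold change of -0.82 ± 0.01 (SE, limma), and LOC134291968, next to LOC134285711, fell by 0.81 ± 0.01. LOC134292187, beside the ND5-like gene LOC134284215, fell by 0.95 ± 0.08, LOC115258844 by 0.68 ± 0.03 and LOC134291090 by 0.44 ± 0.03. LOC109406193, an uncharacterized gene, was the closest of several nuclear genes that lay within 1.5-fold of COX1 in every library. It held 1.02 and 1.01 times the COX1 value in diquat and 1.03 and 0.994 times in control libraries. Its log2 fold change was -0.30 ± 0.01. Whether these genes share reads with the mitochondrial genome was not tested.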
